A study of Mus musculus with 24 samples.

Results

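This account follows 10 genes of metal and oxidant defence through sorted and cultured tissue-resident macrophages (TRMs). They are Mt1, Mt2 and Slc30a1, the metal-response genes, Nqo1, Gclm, Gclc, Txnrd1, Srxn1 and Pir, target genes of the transcription factor NRF2, and Nfe2l2, which encodes NRF2 itself. They were chosen by name with earlier results of these data known, and all 10 of them were found once among the 45706 genes of the count table. The question was how the genes that answer to metal compare with those that answer to NRF2, across 4 populations and both states of each.

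RNA was sequenced from microglia (MG), Kupffer cells of the liver (KCs), peritoneal macrophages (PMs) and alveolar macrophages of the lung (AMs), each sorted directly from the organ (ex vivo) or grown as "like cells" (MG-LCs, KC-LCs, PM-LCs and AM-LCs, in vitro). Each of these 8 groups had 3 libraries. All groups came from female C57BL/6J mice of 8 to 12 weeks. Sorted cells were gated on CD45 and CD11b, together with F4/80 and TIM-4 for KCs, F4/80 and CD115 for PMs, and SiglecF for AMs. All cultures stood on plastic coated with polyethylenimine in DMEM with fetal calf serum and had a single partial change of medium. MG-LCs received M-CSF and IL-34, KC-LCs and PM-LCs received M-CSF, and these cultures had high glucose and low oxygen. AM-LCs received GM-CSF without glucose at the oxygen of room air, so that for AM-LCs the tissue of origin and the culture conditions cannot be told apart. Flasks of brain, lung and peritoneum pooled 3 mice, and a flask of liver held a single liver. Cultured cells were detached with trypsin-EDTA, whereas solid organs were dissociated for sorting, so that state and handling also cannot be told apart. Liver and lung were digested with collagenase and DNase, the brain was homogenised and the peritoneum was lavaged. Population and dissociation therefore cannot be told apart either.

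Metallothioneins are small cysteine-rich proteins that bind zinc and copper. Their genes and Slc30a1, which encodes a zinc exporter of the plasma membrane, are switched on by the zinc-sensing transcription factor MTF1 acting through metal-response elements. NRF2 is held by KEAP1 and degraded in resting cells, and when electrophiles or oxidants modify KEAP1 it accumulates and acts through antioxidant-response elements on genes of glutathione and thioredoxin metabolism, quinone reduction and heme breakdown. Metallothionein genes also respond to oxidants and glucocorticoids, so the programmes are not separate in textbook biology.

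The start regions of 4 members are shown because they carry the short elements after which the groups are named. Each run holds the 250 bases before and 30 bases after the start given by RefSeq (GRCm38.p6, 5′ to 3′ on the strand of the gene). In the first pair, capitals mark TGCACNC or TGCGCNC, the core of the metal-response element, on either strand. They lie at chr8:94178839-94179118 for Mt1 and chr8:94172368-94172647 for Mt2, both on the plus strand.
Mt1: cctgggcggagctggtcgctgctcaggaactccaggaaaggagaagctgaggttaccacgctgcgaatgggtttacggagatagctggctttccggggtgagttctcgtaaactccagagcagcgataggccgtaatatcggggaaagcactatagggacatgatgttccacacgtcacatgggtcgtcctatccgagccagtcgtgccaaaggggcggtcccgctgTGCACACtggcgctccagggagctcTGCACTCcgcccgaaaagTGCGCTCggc
Mt2: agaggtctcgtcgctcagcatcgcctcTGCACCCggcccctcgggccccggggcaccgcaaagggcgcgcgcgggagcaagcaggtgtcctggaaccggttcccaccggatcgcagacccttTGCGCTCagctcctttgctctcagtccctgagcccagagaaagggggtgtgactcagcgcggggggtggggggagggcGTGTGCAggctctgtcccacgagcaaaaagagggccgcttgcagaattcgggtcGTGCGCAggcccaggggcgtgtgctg
In the second pair, capitals mark TGACNNNGC or TGAGNNNGC, the core of the antioxidant-response element, on either strand. They lie at chr2:152105274-152105553 for Srxn1 and chr3:122245307-122245586 for Gclm, both on the plus strand.
Srxn1: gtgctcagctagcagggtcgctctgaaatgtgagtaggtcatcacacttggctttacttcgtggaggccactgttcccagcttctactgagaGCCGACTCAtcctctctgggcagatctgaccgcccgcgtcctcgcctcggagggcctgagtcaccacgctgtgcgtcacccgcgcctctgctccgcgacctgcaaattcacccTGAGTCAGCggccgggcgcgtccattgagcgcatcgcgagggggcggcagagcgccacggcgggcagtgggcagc
Gclm: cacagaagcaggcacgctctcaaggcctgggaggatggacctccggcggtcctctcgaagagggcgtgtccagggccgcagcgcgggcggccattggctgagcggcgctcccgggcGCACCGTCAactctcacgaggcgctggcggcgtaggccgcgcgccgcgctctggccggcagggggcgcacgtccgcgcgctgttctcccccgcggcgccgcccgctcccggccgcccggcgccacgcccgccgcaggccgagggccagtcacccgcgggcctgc

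Mt1 held 3 metal-response cores and Mt2 held 4, whereas 1.73% of the 32851 windows in the table held 3 or more and 24.1% held at least 1. Gclm held 2, and Slc30a1, Srxn1 and Pir held 1 each. Srxn1, Pir and Slc30a1 held 2 antioxidant-response cores each, against 4.01% of all windows with 2 or more and 26.0% with at least 1. Gclm, Mt2 and Nfe2l2 held 1 each. In Gclm, a metal-response core overlapped the antioxidant-response core. Of the 3 start regions listed for Txnrd1, 1 held an antioxidant-response core. Nqo1 held neither in this window, and Gclc was not in the table. The elements did not divide the members into their named groups, and a match is a description of letters only. The motif letters were chosen after the sequences were seen, so the shares of all windows are no test of the members.

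In GRCm38, Mt2 (chr8:94172664-94173568) and Mt1 (chr8:94179082-94180327) lie next to each other on the plus strand of chromosome 8. Slc30a1 lies at chr1:191906767-191913247, Nqo1 at chr8:107388225-107403206, Gclm at chr3:122245557-122270732 and Gclc at chr9:77754535-77794485. Txnrd1 lies at chr10:82833951-82897712, Srxn1 at chr2:152105516-152111376, Pir at chrX:164269371-164373011 and Nfe2l2 at chr2:75675513-75704641. The library kit did not mark strand. Of the 588 exon bases of Mt2, 432 also lie in exons of the antisense gene Gm45774, so reads from the pair cannot be told apart. Slc30a1 shares 468 exon bases with an antisense gene that held 189 reads over all 24 libraries. Gclm shares 296 exon bases with the antisense gene Gm17494 and 244 with Gm6061 on its own strand, which held 706 reads between them.

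Each library held between 29569486 and 47105111 reads assigned to genes. The sorted populations carried the markers of their labels. The summed level of each population's own markers, in counts scaled to the library size by TMM (CPM), was 15450 to 16080 in MG and 13900 to 24810 in KCs, with 8005 to 8188 in PMs and 20730 to 23770 in AMs. In the cultures the same sums were lower, at 275 to 1080 in MG-LCs, 17.0 to 94.1 in KC-LCs, 77.6 to 91.1 in PM-LCs and 2457 to 9451 in AM-LCs, while all 6 markers shared by macrophages were detected in every library. Their sum was 17040 to 18900 CPM in MG and 2628 to 8786 in MG-LCs. The KC markers summed to 215 to 2234 CPM in MG-LCs and 142 to 826 in PM-LCs, above their sum in KC-LCs. The MG markers summed to 211 to 277 CPM in KC-LCs, which overlapped with MG-LCs. The PM and AM markers were highest in their own cultures. The cultures are named here by their labels. Markers of glia and neurons summed to 42.8 to 53.2 CPM in MG and 99.95 to 247 in MG-LCs, and those of neutrophils to 98.0 to 118 CPM in AMs and 320 to 734 in AM-LCs. Those of lung epithelium summed to 287 to 345 CPM in AMs and 61.8 to 216 in AM-LCs, and to at most 4.88 CPM in any other group. What part such cells had in the results was not tested. The mean of the Kupffer cell marker Clec4f was 11740 CPM in KCs and under the level of 3 reads a library in KC-LCs. Replicate 1 of the MG-LCs stood apart. Its 8 markers of fibroblasts and mesothelium were all detected and summed to 31160 CPM, against 7.49 CPM and 1019 CPM in the other MG-LC libraries. Results of the members are given with and without this library where they change. The wider gene lists below were not fitted without it.

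**Figure D1:**
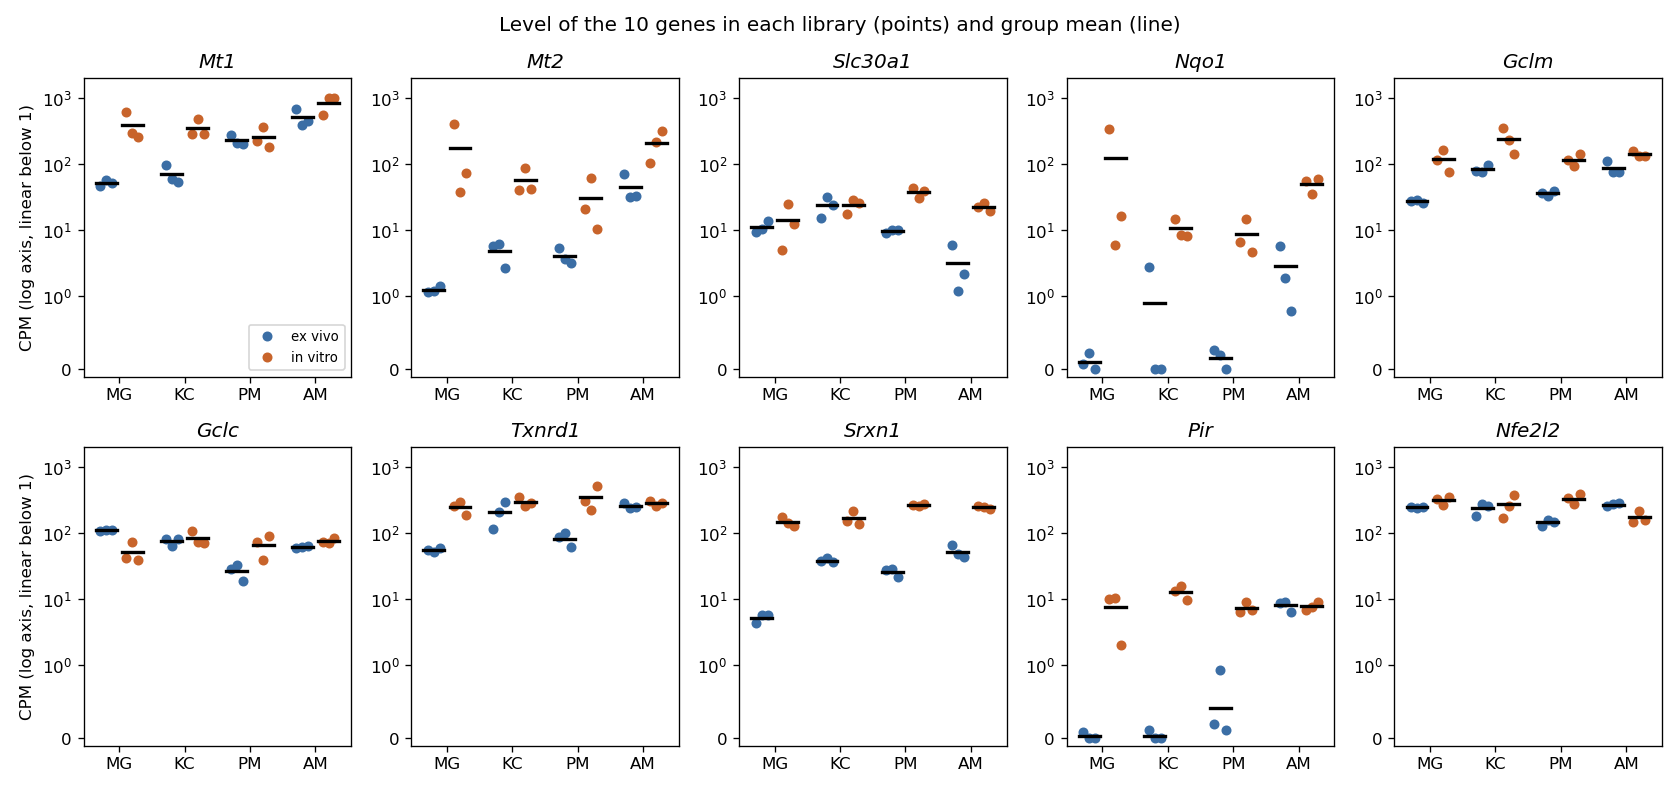
CPM of each of the 10 genes (vertical axis, logarithmic above 1 and linear below) in the 3 libraries of every group, sorted (blue) and cultured (orange), with the group mean as a line. Mt2, Nqo1, Srxn1 and, outside the AMs, Pir sit higher in culture, whereas Gclc and Nfe2l2 span less of the axis.

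Mt1, the main metallothionein transcript by reads, was highest in AMs among the sorted cells and rose in culture in MG and KCs, which started low. Sorted MG held 47.1, 56.5 and 52.3 CPM, KCs 95.7, 59.8 and 53.9, PMs 278, 211 and 204, and AMs 685, 396 and 459. The order was AMs, PMs, then KCs and MG, and the ranges of the last pair overlapped. MG-LCs held 625, 293 and 260 CPM, KC-LCs 284, 482 and 289, PM-LCs 225, 361 and 184, and AM-LCs 548, 1002 and 1017. Every MG-LC and KC-LC library stood above every MG and KC library, while PMs and AMs overlapped with their cultures. The log2 fold change (in vitro minus ex vivo) was 2.97 ± 0.40 (SE) in MG and 2.30 ± 0.35 in KCs, with adjusted p of 0.00327 and 0.00313 in edgeR's quasi-likelihood test. It was 0.15 ± 0.28 in PMs (adjusted p = 0.720) and 0.76 ± 0.31 in AMs (adjusted p = 0.0786). In AMs it reached 1.01 (adjusted p = 0.0166) without AM-LC replicate 1, and DESeq2 called it with all libraries (adjusted p = 0.0182).

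Mt2, its neighbour, was higher in culture in all 4 populations. Sorted MG held 1.15, 1.19 and 1.41 CPM, KCs 5.71, 6.05 and 2.65, PMs 5.31, 3.63 and 3.20, and AMs 70.4, 31.8 and 33.2. AMs stood above all other sorted cells and MG below them, with KCs and PMs overlapping. The cultures held 412, 38.5 and 72.5 CPM for MG-LCs, 40.1, 88.0 and 41.9 for KC-LCs, 20.8, 61.3 and 10.5 for PM-LCs, and 104, 215 and 314 for AM-LCs. No cultured library overlapped with the sorted libraries of its population. On the log2 scale the culture effect was 7.18 ± 1.11 in MG and 3.53 ± 0.47 in KCs, with 2.93 ± 0.65 in PMs and 2.26 ± 0.49 in AMs (adjusted p = 0.00474, 0.00205, 0.0145 and 0.00815). Without MG-LC replicate 1, the library rich in stromal markers, the value in MG was 5.52 (adjusted p = 0.000227). In PMs the call was lost when any one of the sorted libraries was left out (adjusted p = 0.0564 to 0.0772).

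The balance between both metallothioneins shifted inside the libraries, a comparison that does not depend on scaling between libraries. Mt2 reads amounted to 2.11% to 2.69% of Mt1 reads in MG and 4.92% to 10.1% in KCs, with 1.57% to 1.92% in PMs and 7.24% to 10.3% in AMs. In the cultures they amounted to 13.1% to 65.9% in MG-LCs, 14.1% to 18.3% in KC-LCs, 5.72% to 17.0% in PM-LCs and 18.9% to 30.9% in AM-LCs. In each population the cultured libraries lay above all the sorted ones. Per kilobase of exon, the mean level of Mt1 was 41.7 CPM and that of Mt2 was 2.12 CPM in MG, against 315 and 296 CPM in MG-LCs. The latter pair rested on replicate 1, at 502 CPM for Mt1 and 700.4 for Mt2 per kilobase, since the other MG-LC libraries held 235 and 209 for Mt1 and 65.4 and 123 for Mt2. The annotated exons of Mt1 together cover its whole gene, 1246 bases, against 588 bases for Mt2. A shorter length for Mt1 would raise its level per kilobase, so these values do not rank Mt1 against Mt2.

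**Figure D2:**
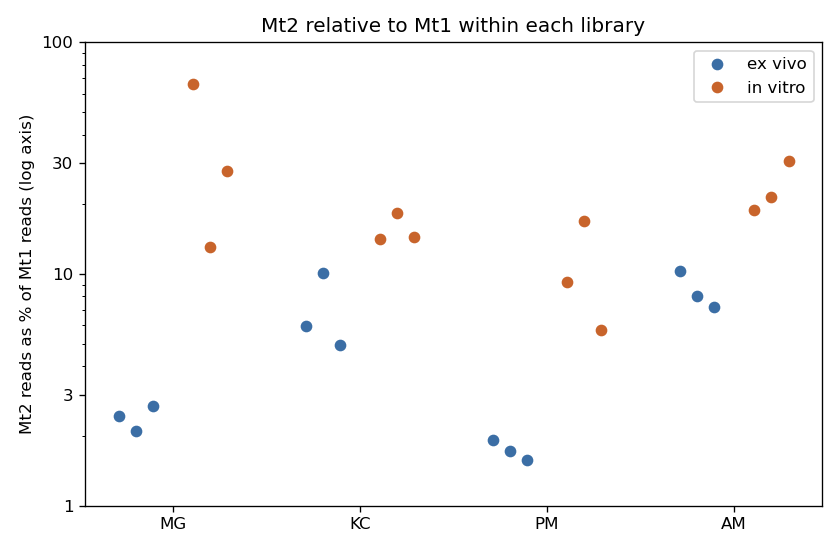
Mt2 reads as a percentage of Mt1 reads (vertical axis, logarithmic) in each library, by population. Cultured libraries (orange) lie above the sorted ones (blue) in all 4 populations, with the highest share, 65.9%, in MG-LC replicate 1.

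Slc30a1, the zinc exporter, rose in PMs and AMs. Sorted KCs held 15.3, 32.3 and 23.6 CPM, MG 9.23, 10.4 and 13.6, PMs 9.12, 10.2 and 10.1, and AMs 6.04, 1.202 and 2.16. KCs were thus highest and AMs lowest, the reverse of the place of AMs for Mt1 and Mt2. The cultures held 4.93, 25.2 and 12.3 CPM for MG-LCs, 17.4, 28.4 and 25.8 for KC-LCs, 44.0, 30.4 and 39.2 for PM-LCs, and 22.1, 26.0 and 19.5 for AM-LCs. PM-LCs and AM-LCs stood above all PM and AM libraries, whereas MG and KCs overlapped with their cultures. Its culture effect (log2) was 1.95 ± 0.22 in PMs and 2.85 ± 0.57 in AMs (adjusted p = 0.000860 and 0.00561), 0.40 ± 0.57 in MG (adjusted p = 0.583) and -0.02 ± 0.35 in KCs (adjusted p = 0.968). With edgeR and all libraries, Slc30a1 passed the test in PMs and AMs and Mt1 in MG and KCs, but Mt1 was also called in AMs under the alternatives given above.

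Among the NRF2 targets, Nqo1, which encodes a quinone reductase, went from near absence to clear detection. It had 11 reads over the 3 MG libraries, 15 over the PMs and 297 over the AMs. In KCs all 100 reads lay in replicate 1, at 2.72 CPM, and the other KC libraries held 0 reads, which allows up to 0.0779 and 0.0856 CPM at 3 reads. That KC library also had the highest summed level of hepatocyte markers among KCs, 299 CPM against 135 and 152 CPM, and the lowest of endothelial markers, 398 CPM against 718 and 837 CPM, and their part in the value was not tested. The cultures held 344, 6.00 and 16.3 CPM for MG-LCs, 14.9, 8.52 and 8.25 for KC-LCs, 6.59, 14.9 and 4.68 for PM-LCs, and 56.4, 35.5 and 58.9 for AM-LCs. Every culture stood above its sorted population, and within the MG-LCs the highest library was again the one rich in stromal markers.

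The log2 fold change of Nqo1 was 10.42 ± 2.27 in MG, 5.83 ± 1.08 in PMs and 4.19 ± 0.70 in AMs (adjusted p = 0.0131, 0.00720 and 0.00278). Its size at such low counts depends on the prior count of the fit. Without MG-LC replicate 1 it was 6.94 in MG (adjusted p = 0.00433), and limma-voom did not call it with all MG libraries (adjusted p = 0.199). The call was also lost when any one of the sorted MG libraries was left out (adjusted p = 0.0571 to 0.0724). In KCs it was 3.49 ± 1.74 (adjusted p = 0.157), and 11.68 (adjusted p = 0.00122) without KC replicate 1, where the remaining KC libraries were at 0 and the number is no measure of size.

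Srxn1, which encodes sulfiredoxin, the enzyme that repairs overoxidised peroxiredoxins, was also higher in every culture, with little spread, but was already detected in all sorted cells. Sorted MG held 4.36, 5.68 and 5.68 CPM, KCs 37.3, 41.7 and 36.3, PMs 27.7, 29.0 and 21.7, and AMs 67.0, 47.8 and 43.2. All neighbours in the order AMs, KCs, PMs and MG were apart. The cultures held 175, 143 and 128 CPM for MG-LCs, 151, 219 and 136 for KC-LCs, 269, 255 and 279 for PM-LCs, and 255, 251 and 231 for AM-LCs. PM-LCs stood just above AM-LCs, both stood above the other cultures, and KC-LCs and MG-LCs overlapped. The log2 fold change was 4.88 ± 0.23 in MG and 2.10 ± 0.26 in KCs, with 3.36 ± 0.19 in PMs and 2.23 ± 0.18 in AMs (adjusted p = 0.000581, 0.00154, 5.05e-05 and 0.000170). It was called in every population under every alternative tried.

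Pir, which encodes the iron-binding nuclear protein pirin, was nearly absent from sorted MG and KCs, with 4 reads over the 3 libraries of each. PMs held 0.201, 0.927 and 0.109 CPM, and AMs already held 8.64, 9.18 and 6.47. In culture, MG-LCs held 9.96, 10.5 and 2.03 CPM, KC-LCs 13.3, 15.95 and 9.64, PM-LCs 6.40, 8.88 and 6.71, and AM-LCs 6.93, 7.67 and 8.97. Every KC-LC library stood above all libraries of AMs and AM-LCs, and the ranges of PM-LCs and MG-LCs overlapped with those of AM-LCs, with MG-LC replicate 3 below them. The level in MG-LCs was 240 times that in MG (95% exact counting interval 93.3 to 882) and in KC-LCs 359 times that in KCs (140 to 1317), both intervals covering counting error only. Fitted over all libraries, the log2 fold change was 4.14 ± 0.84 in PMs (adjusted p = 0.0102) and -0.03 ± 0.27 in AMs (adjusted p = 0.939), and MG and KCs were called (adjusted p = 0.00677 and 0.00219). Without PM replicate 1 the call in PMs was lost (adjusted p = 0.0551).

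Gclm and Gclc encode the modifier and the catalytic subunit of the enzyme that makes the first intermediate of glutathione. Gclm was higher in every culture, at 118 ± 44.2 CPM (SD, n = 3) in MG-LCs against 27.5 ± 1.71 in MG, 242 ± 102 against 84.2 ± 11.2 for KCs, 117 ± 24.5 against 36.5 ± 3.15 for PMs, and 142 ± 14.8 against 87.5 ± 20.8 for AMs. Its log2 fold change was 2.15 ± 0.30, 1.48 ± 0.34, 1.67 ± 0.21 and 0.71 ± 0.18 in MG, KCs, PMs and AMs (adjusted p = 0.00355, 0.0131, 0.00137 and 0.0154). The call in AMs was lost without AM replicate 2 or 3 (adjusted p = 0.0694 and 0.0676) and in 1 model of all 24 libraries (adjusted p = 0.0668), and that in KCs without KC replicate 2 (adjusted p = 0.0509).

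Gclc fell in MG-LCs, at 51.8 ± 19.2 CPM (SD, n = 3) against 111 ± 2.36 in MG, and rose in PM-LCs, at 67.2 ± 25.5 against 26.6 ± 6.85 in PMs. Among the sorted cells MG were highest for Gclc and lowest for Gclm. KCs and KC-LCs held 76.0 ± 10.7 and 83.5 ± 20.9 CPM, and AMs and AM-LCs 62.2 ± 2.38 and 75.5 ± 7.66. The log2 fold change was -1.05 ± 0.27 in MG and 1.34 ± 0.35 in PMs (adjusted p = 0.0223 and 0.0263), 0.10 ± 0.25 in KCs (adjusted p = 0.794) and 0.30 ± 0.13 in AMs (adjusted p = 0.108). Both calls were lost when any one sorted library was left out (adjusted p = 0.0751 to 0.0781 in MG and 0.0684 to 0.0978 in PMs), and that in PMs also without PM-LC replicate 1 (adjusted p = 0.0742).

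Txnrd1, which encodes the cytosolic thioredoxin reductase, rose in the populations that started low. MG held 55.8 ± 3.79 CPM (SD, n = 3) and PMs 82.6 ± 20.0, whereas KCs held 207 ± 90.5 and AMs 258 ± 23.5. The cultures held 251 ± 54.6 CPM for MG-LCs, 300 ± 52.3 for KC-LCs, 355 ± 154 for PM-LCs and 284 ± 22.7 for AM-LCs, with overlapping ranges between neighbours. This gave a log2 fold change of 2.22 ± 0.23 in MG and 2.11 ± 0.36 in PMs (adjusted p = 0.00150 and 0.00492), 0.50 ± 0.36 in KCs (adjusted p = 0.309) and 0.15 ± 0.13 in AMs (adjusted p = 0.357).

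Nfe2l2, the transcript of NRF2 itself, rose in PMs and fell in AMs. It held 246 ± 3.04 CPM (SD, n = 3) in MG and 315 ± 43.3 in MG-LCs, 237 ± 47.4 and 273 ± 108 in KCs and KC-LCs, 145 ± 15.1 and 335 ± 55.2 in PMs and PM-LCs, and 271 ± 14.4 and 175 ± 37.1 in AMs and AM-LCs. It rose in PMs by 1.21 ± 0.19 and fell in AMs, at -0.62 ± 0.16 on the log2 scale (adjusted p = 0.00359 and 0.0149), and gave 0.41 ± 0.19 in MG and 0.17 ± 0.34 in KCs (adjusted p = 0.127 and 0.721). In AMs the call was lost without AM replicate 2 or 3 (adjusted p = 0.0540 and 0.0577) and in 1 model of all 24 libraries (adjusted p = 0.0527). Transcript counts do not report the NRF2 protein, which is regulated by degradation.

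**Figure D3:**
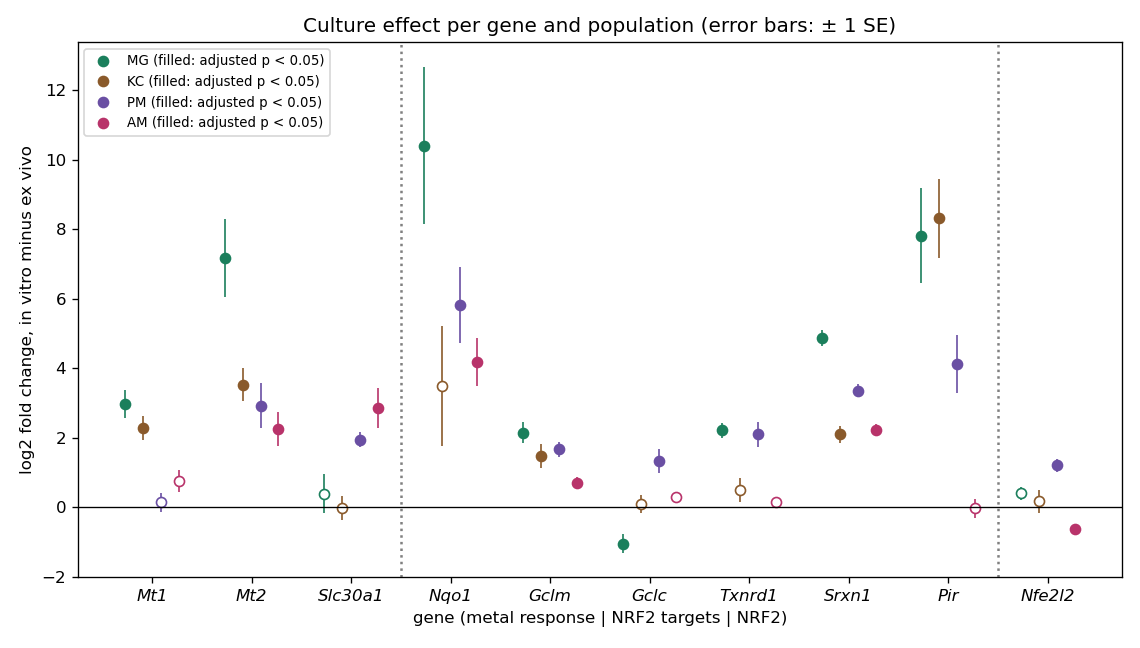
Log2 fold change (in vitro minus ex vivo) with ± 1 SE for each gene and population. Filled symbols passed the test, and dotted lines part the metal-response genes, the NRF2 targets and Nfe2l2. Srxn1 and Mt2 are filled for all 4 populations, and Gclc is below 0 in MG and above 0 in PMs.

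Counted over all members, 7 of 10 rose and 1 fell in MG, 5 rose in KCs, 9 rose in PMs, and 5 rose and 1 fell in AMs. Of all genes tested, 25.2% were higher in vitro and 21.2% ex vivo in MG, 14.4% and 19.4% in KCs, 16.8% and 12.1% in PMs, and 25.9% and 22.9% in AMs. Since the members were chosen with earlier results of these data known, the counts beside these shares are a description. Of the 3 metal-response genes, 2 rose in each population, being Mt1 and Mt2 in MG and KCs, and Mt2 and Slc30a1 in PMs and AMs. Of the 6 NRF2 targets, 5 rose in MG and 3 in KCs, with 6 in PMs and 3 in AMs. The 3 that rose in KCs were Gclm, Srxn1 and Pir, and in AMs Nqo1, Gclm and Srxn1. The median log2 fold change of the metal-response genes was 2.97 in MG and 2.30 in KCs, with 1.95 in PMs and 2.26 in AMs. That of the NRF2 targets was 3.55, 1.79, 2.73 and 0.50, beside 0.03, -0.01, 0.01 and 0.04 over all genes tested. In bulk RNA, a change in the level per cell and a change in the share of cells that hold the transcript cannot be told apart.

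The same contrast was read within libraries from the mean log2 CPM of each group of genes (prior count 2). Its level cannot be compared between the groups of genes. The size of its change in MG, KCs and PMs depends on the prior count, because Nqo1 and Pir held few reads in the sorted cells. The metal-response mean was 3.18 ± 0.17 (SD, n = 3) in MG and 4.26 ± 0.31 in KCs, with 4.38 ± 0.18 in PMs and 5.24 ± 0.73 in AMs. The NRF2 target mean was 2.17 ± 0.21, 3.25 ± 0.60, 2.80 ± 0.55 and 5.03 ± 0.37. Sorted AMs were highest on both and MG lowest on both. In culture the metal-response mean was higher by 3.07 in MG and 1.97 in KCs, with 1.54 in PMs and 2.01 in AMs, and the NRF2 target mean by 3.70, 2.88, 3.06 and 1.31. In KCs this order was the reverse of that of the medians, which were 2.30 for the metal-response genes and 1.79 for the NRF2 targets. The metal-response mean minus the NRF2 target mean was lower in culture for MG (0.38 against 1.01), KCs (0.10 against 1.01) and PMs (0.06 against 1.58), and higher in culture for AMs (0.91 against 0.21). These means are a description, and the ranges of sorted and cultured libraries overlapped in MG, KCs and AMs but not in PMs.

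**Figure D4:**
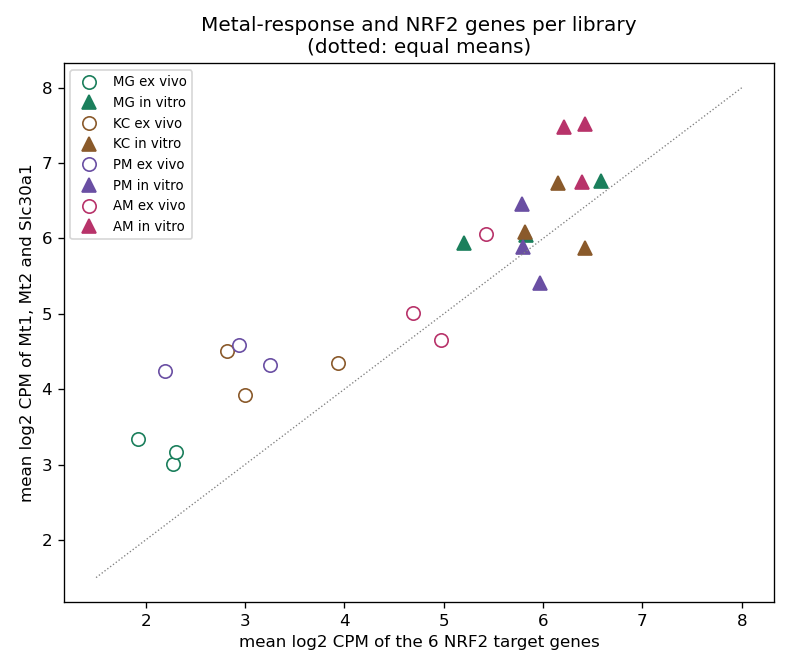
Mean log2 CPM of Mt1, Mt2 and Slc30a1 (vertical) against that of the 6 NRF2 targets (horizontal) in each of the 24 libraries. The sorted MG, KC and PM libraries (open circles) lie at low values above the dotted line of equal means, and the cultured libraries (triangles) gather at the upper right with AM-LC replicates 2 and 3 on top.

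Whether the sorted populations differed was tested over the 12 sorted libraries with an F test of 3 degrees of freedom. Of the 10 members 9 were called, where 70.9% of all genes tested were. Srxn1 (adjusted p = 7.89e-07), Mt1 (1.49e-06) and Mt2 (1.79e-06) had the smallest values by edgeR, and Nqo1 was the exception (adjusted p = 0.111, and 0.00330 without KC replicate 1). AMs had the highest mean for Mt1, Mt2, Nqo1, Gclm, Txnrd1, Srxn1, Pir and Nfe2l2, although the ranges of AMs and KCs overlapped for Nqo1, Gclm, Txnrd1 and Nfe2l2. MG had the lowest mean for Mt1, Mt2, Nqo1, Gclm, Txnrd1, Srxn1 and Pir. Dissociation differed between the organs, and its part in these differences was not tested.

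The same test among the cultures gave fewer calls. Over the 12 cultured libraries none of the 10 members was called by edgeR, where 7.85% of all genes tested were. At an unadjusted p under 0.05 the count was 6, limma-voom called 0, and DESeq2 called 5 (Mt1, Mt2, Nqo1, Gclm and Srxn1). Without MG-LC replicate 1, edgeR called 3, which were Mt1 (adjusted p = 0.0198), Nqo1 (0.0195) and Srxn1 (0.0267). The shares of all genes tested were not computed for the unadjusted p, the other tools or the fit without a library. Those counts are therefore a description and no result about the members. A miss of the threshold does not show that the cultures were alike.

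AM-LCs, grown with GM-CSF, were set against the mean of the other cultures. Mt1 alone was called and was higher in AM-LCs, by 1.39 ± 0.33 on the log2 scale (adjusted p = 0.0213), where 8.38% of all genes tested were higher and 4.71% lower. That call was lost without AM-LC replicate 2 (adjusted p = 0.0954) or 3 (adjusted p = 0.0981). Mt2 was at 1.65 ± 0.67 (adjusted p = 0.136) and Nqo1 at 1.16 ± 0.86 (adjusted p = 0.418). Without MG-LC replicate 1 both were called, at 2.23 (adjusted p = 0.0135) and 2.34 (adjusted p = 0.00351). Slc30a1 was at -0.03 ± 0.36 (adjusted p = 0.965). Nfe2l2 was at -0.80 ± 0.25 (adjusted p = 0.0603), and was called by DESeq2 (adjusted p = 0.0142) and without KC-LC replicate 1 (adjusted p = 0.0288).

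The culture effect itself was then tested for a difference between populations over all 24 libraries. Of the 10 members 9 were called, where 36.3% of all genes tested were. Among the metal-response genes, the adjusted p was 0.000726 for Mt1, 0.00583 for Mt2 and 0.0102 for Slc30a1. Mt1 changed most in MG and KCs, and Slc30a1 in PMs and AMs. Among the NRF2 targets, it was 1.49e-06 for Srxn1, 0.000388 for Pir, 0.000806 for Gclc, 0.00114 for Txnrd1 and 0.0462 for Gclm, with 0.0704 for Nqo1 and 0.00255 for Nfe2l2. The Gclm call was lost on leaving out any of 20 of the 24 libraries, with an adjusted p of up to 0.137 without AM replicate 1. Mt2 was not called by limma-voom (adjusted p = 0.167). Nqo1 was called on leaving out MG-LC replicate 2 or 3 or any one sorted KC library (adjusted p = 0.0351 to 0.0475).

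**Figure D5:**
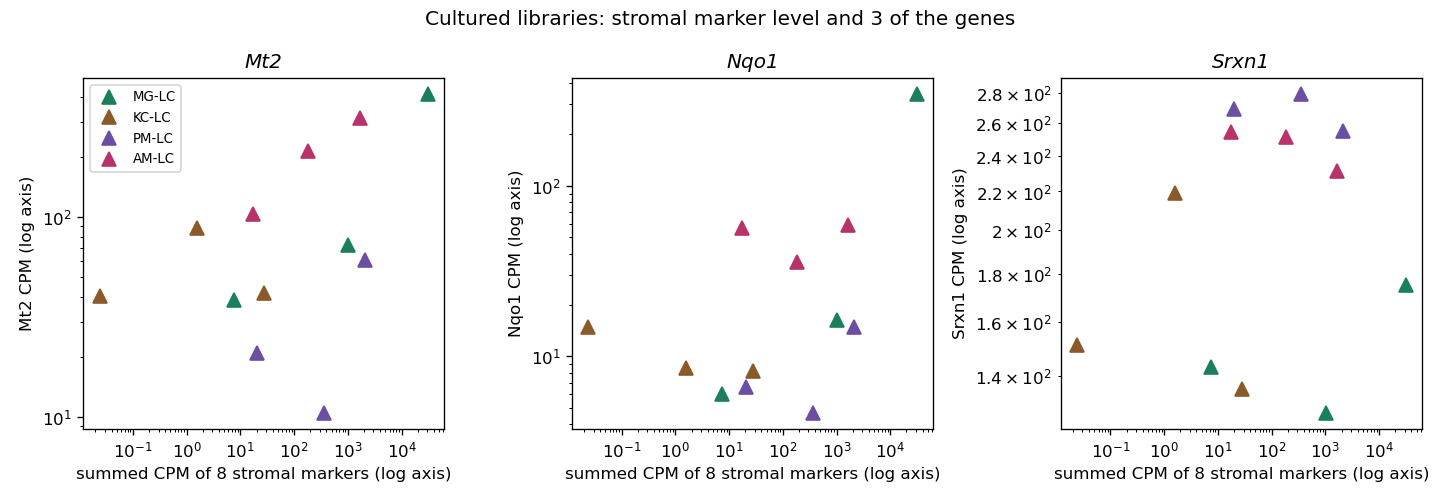
CPM of Mt2, Nqo1 and Srxn1 (vertical, logarithmic) against the summed CPM of 8 markers of fibroblasts and mesothelium (horizontal, logarithmic) in the 12 cultured libraries. The MG-LC library at 31160 CPM of these markers holds the highest Mt2 (412 CPM) and Nqo1 (344 CPM), while its Srxn1 (175 CPM) lies within the range of the other libraries.

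In the cultures of MG, PMs and AMs, the library with the most stromal markers also held the most Mt1 and Mt2. The summed level of the 8 markers was 20.3, 2130 and 359 CPM in the PM-LCs and 17.4, 182 and 1662 CPM in the AM-LCs, and the libraries with the most of it, PM-LC replicate 2 and AM-LC replicate 3, held the highest Mt2 and Mt1 of their groups. In KC-LCs the sum was 0.0240, 1.57 and 28.1 CPM, and 2 to 7 of the 8 markers were at 0. In sorted cells the sum was at most 23.97 CPM. PM-LC replicate 3, with more of these markers than replicate 1, held less Mt2 (10.5 against 20.8 CPM). What part stromal cells had in Mt1, Mt2 and Nqo1 was not tested.

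The wider lists of metal genes, chosen with earlier results known, were counted beside the shares of all genes tested that were higher and lower in culture (25.2% and 21.2% in MG, 14.4% and 19.4% in KCs, 16.8% and 12.1% in PMs, 25.9% and 22.9% in AMs). Of the exporters of the Slc30 family, 6 of 10 could be tested in each population, and 1 was called in KCs, 2 in PMs and 3 in AMs, all higher in culture, while in MG the lowest adjusted p was 0.148. In KCs the call was Slc30a4, at 2.15 ± 0.58 on the log2 scale (adjusted p = 0.0255), and in PMs Slc30a1 and Slc30a6. In AMs Slc30a4, an exporter into vesicles, stood at 33.7 ± 7.44 CPM (SD, n = 3) against 0.730 ± 0.672 in AMs, a log2 change of 5.54 ± 0.71 (adjusted p = 0.000902). Of the importers of the Slc39 family, 2 rose and 1 fell of 13 in MG, 4 rose and 1 fell of 13 in KCs, 3 rose of 11 in PMs, and 5 rose and 2 fell of 13 in AMs. Slc39a6 rose in all 4 populations, by 1.45 ± 0.29, 1.89 ± 0.35, 1.03 ± 0.24 and 1.92 ± 0.14 in MG, KCs, PMs and AMs. Mtf1, the metal sensor that drives the metallothioneins, fell in KCs and AMs, at -0.77 ± 0.24 and -1.14 ± 0.15 (adjusted p = 0.0416 and 0.000903). Of the 9 genes of copper handling, 5 rose in MG, 2 rose and 1 fell in KCs, 1 rose and 1 fell in PMs, and 5 rose and 1 fell in AMs. The copper importer Slc31a1 rose by 1.39 ± 0.38 in KCs and 2.70 ± 0.14 in AMs.

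The wider lists of NRF2 targets, which hold the members too, are read beside the same shares. Of the 5 genes of thioredoxin and peroxiredoxin, 5 rose in MG, 3 in KCs, 3 with 1 fall in PMs, and 3 in AMs. Prdx1, a peroxiredoxin and substrate of sulfiredoxin, reached 1789 ± 447 CPM (SD, n = 3) in the MG-LCs against 81.5 ± 5.75 in MG, and at 6261 ± 822 in PM-LCs against 425 ± 11.4 in PMs. Of the 7 genes of heme and iron, 6 rose in MG, 7 in PMs and 5 in AMs, and in KCs 2 rose and 1 fell. Hmox1, the heme-degrading oxygenase, was at 667 ± 131 CPM in MG-LCs against 21.0 ± 1.23 in MG. It held 594 ± 144 CPM in PM-LCs against 132 ± 18.8 in PMs, and 340 ± 165 in AM-LCs against 141 ± 30.1 in AMs. In KCs the means went the other way without a call, at 491 ± 212 CPM in KC-LCs against 776 ± 396 in KCs. The iron exporter Slc40a1 took opposite courses, from 0.131 ± 0.173 CPM in PMs to 289 ± 132 in PM-LCs, and from 5889 ± 3941 in KCs down to 573 ± 228 in KC-LCs (adjusted p = 0.000250 and 0.00867). The ferritin gene Fth1 rose in all 4 populations, to means of 25770 to 34890 CPM in the cultures.

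Of the 12 genes of quinones and detoxification, 9 rose and 1 fell in MG, where all could be tested. In KCs 3 rose and 1 fell of 10, in PMs 7 rose of 11, and in AMs 7 rose of 11. Akr1b8, an aldo-keto reductase, rose in each, to 81.8 ± 40.8 CPM from 7 reads over the 3 libraries of MG, to 77.4 ± 19.4 from 1.57 ± 0.708 in KCs, to 73.3 ± 29.9 from 0.311 ± 0.218 in PMs, and to 21.2 ± 12.5 from 3.54 ± 1.09 in AMs. Of the genes of glutathione, 6 rose and 1 fell of 11 in MG, 3 rose and 2 fell of 12 in KCs, 7 rose and 1 fell of 12 in PMs, and 6 rose and 1 fell of 12 in AMs. Gsta4 was among those that fell in KCs, at -3.34 ± 0.65 on the log2 scale. Gsr, also in the wider lists, was lower in PM-LCs (171 ± 57.2 CPM against 416 ± 41.9 in PMs) and AM-LCs (176 ± 35.45 against 565 ± 34.9 in AMs). Its level was higher in MG-LCs (115 ± 5.01 against 27.2 ± 0.127 in MG), and the ranges of KCs and KC-LCs overlapped. The cystine importer Slc7a11 was at 12.9 ± 10.01 CPM in PM-LCs and 115 ± 39.0 in AM-LCs, against 18.6 ± 15.98 in AMs and 6 reads over the 3 libraries of PMs. It was higher in AM-LCs than in the other cultures by 3.06 ± 0.72 on the log2 scale (adjusted p = 0.0198).

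Of the 6 genes that supply NADPH, 6 rose in MG, 1 in KCs and 3 in PMs, whereas 1 rose and 3 fell in AMs. Me1, malic enzyme, was the one that rose in KCs and in AMs, and Idh1 and Taldo1 were among those that fell in AMs, at -0.79 ± 0.15 and -0.50 ± 0.12. Of the 13 regulators of NRF2, including Nfe2l2, 4 rose and 3 fell in MG, 3 rose and 2 fell in KCs and 5 rose and 1 fell in PMs, and 3 rose and 3 fell of 12 in AMs. Sqstm1, which encodes the KEAP1-binding autophagy receptor p62, rose in all 4 populations, by 1.63 ± 0.26, 1.503 ± 0.25, 2.01 ± 0.18 and 0.65 ± 0.11 in MG, KCs, PMs and AMs. Bach2, a repressor that competes at the same elements, fell in MG and KCs, at -4.97 ± 0.71 and -5.85 ± 0.66. Of the other antioxidant enzymes, 12 of 14 rose in MG, 4 rose and 1 fell of 14 in KCs, 2 rose and 4 fell of 13 in PMs, and 5 rose and 3 fell of 14 in AMs. Txnip, the inhibitor of thioredoxin, was among those that fell in PMs and AMs, at -2.40 ± 0.36 and -5.35 ± 0.53.

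Over the 8 group means of log2 CPM, the genes whose pattern was most like that of Mt1 among 17327 were Cct2, Dlat, E2f6, Tstd3 and Txnl4a, with Pearson's r from 0.991 to 0.970. Those most like Nqo1 were Nup93, Sec13, Gm37696, Stard6 and Slc25a4, with r from 0.992 to 0.975. Of the members, Mt2 came nearest to Nqo1 (r = 0.959, rank 18), ahead of Pir (r = 0.888) and Srxn1 (r = 0.887). The MG-LC mean used here included replicate 1, which held 412 CPM of Mt2 and 344 CPM of Nqo1, and r was not computed without it. Mt2 was also the member nearest to Mt1 (r = 0.899, rank 261), and Slc30a1 was far from it (r = -0.138). The points share libraries and scaling, and many genes separate sorted from cultured cells, so these values are descriptions.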

How the data were processed

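The authors sequenced single reads from SMARTer v4 and Nextera XT libraries, trimmed and aligned them, and deposited raw counts of reads per gene for 24 libraries. The processing notes name Trimmomatic 0.36 and STAR 2.5.2b. The build given by the notes (human) and by the study's methods (mouse mm10) differ, and all identifiers in the table are mouse genes. Symbols, exon lengths and coordinates came from GENCODE for GRCm38, and 45143 of 45706 identifiers matched. There were 3 libraries per group. Groups came from the labels. That replicates are separate animals or cultures is not stated per library, so p-values measure the spread between these libraries.

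The deposited counts were tested with edgeR 4.0.16 (R 4.3.3), using TMM scaling, filterByExpr with a minimum count of 10, estimateDisp, glmQLFit and glmQLFTest, and Benjamini-Hochberg adjustment over all genes tested. A call is an adjusted p under 0.05. The SE is the log2 fold change divided by the square root of F. Each culture effect was fitted on the 6 libraries of its population, differences among populations on 12, and the difference between culture effects on 24. CPM were scaled by TMM over 24 libraries (17408 genes kept). For libraries of sorted KCs without a read of Nqo1 the level of 3 reads is given as a limit, and intervals cover counting error only. Alternatives were limma-voom (limma 3.58.1), DESeq2 1.42.0, RLE size factors, other filters, a replicate block, 1 model of all libraries, a log2 fold change above 1.5, and leaving out each library. They were read for the members and not for the wider lists. Tested on simulated data for the MG, KC, PM and AM culture effects, the fit found 40, 55, 71 and 79 of 100 genes changed 4-fold and 83, 85, 90 and 98 of 100 changed 16-fold, in runs on 13923, 13275, 13158 and 12841 genes. It also called 6, 11, 5 and 12 unchanged genes. Each run changed 200 genes, a smaller share than was called in the data. They were drawn from genes without low counts, so genes near 0 reads in sorted cells were not covered.

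Named genes were the 10 members, the 5 genes most like Mt1 and Nqo1, and genes drawn from the wider lists. The latter came from up to 3 called genes with the largest change per list and population, and from those making up small counts. Slc39a6 and Slc31a1 are among those with the largest change. Not every such gene is named, and Gsr was added for its lower levels in PM-LCs and AM-LCs. Motif letters were chosen after the sequences were seen. The members and lists were chosen with earlier results of these data known.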

Additional observations from a re-analysis of the deposited data

Results flagged for a closer look

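The culture effect differed between the 4 populations for 9 of the 10 members in edgeR's quasi-likelihood F test over 24 libraries. The adjusted p was 1.49e-06 for Srxn1, 0.000388 for Pir, 0.000726 for Mt1, 0.000806 for Gclc, 0.00114 for Txnrd1, 0.00255 for Nfe2l2, 0.00583 for Mt2, 0.0102 for Slc30a1 and 0.0462 for Gclm, where 36.3% of all genes tested were called. The log2 fold change of Srxn1 ran from 2.10 in KCs to 4.88 in MG, and that of Pir from -0.03 in AMs to 8.32 in KCs. Mt1 ran from 0.15 in PMs to 2.97 in MG, and Slc30a1 from -0.02 in KCs to 2.85 in AMs. Gclc was called lower in MG-LCs and higher in PM-LCs, both calls being lost when any one sorted library was left out, and Nfe2l2 lower in AM-LCs and higher in PM-LCs.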

How the results depend on the processing

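Over 1359 values of single genes under another setting, 1260 kept direction and side of the threshold, 50 lost the call, 26 gained it and 23 changed sign, of which 0 had been called. Sign changes among the settings that kept all libraries were at Slc30a1 in KCs (0.00 with no filter, 0.01 with the replicate block and 0.01 with all 24 libraries in 1 model), at Slc30a1 in AM-LCs against the other cultures (0.05 by limma-voom and 0.01 with the replicate block) and at Gclm there (0.00 by limma-voom). The cause was not tested. Most sign changes came on leaving out a library, and over all settings uncalled values crossed 0 for Slc30a1 in MG (-0.33 to 0.81), Slc30a1, Gclc and Nfe2l2 in KCs (-0.25 to 0.26, -0.09 to 0.23 and -0.14 to 0.45), Mt1 in PMs (-0.21 to 0.31), Pir in AMs (-0.18 to 0.07), and Slc30a1, Gclm and Txnrd1 in AM-LCs against the other cultures (-0.17 to 0.19, -0.14 to 0.06 and -0.13 to 0.07). DESeq2 called 5 members among the cultures, against 0, and 2 for AM-LCs against the other cultures, against 1. Leaving out 1 library gave 0 to 3 for each of these, 6 to 8 for MG, 4 to 6 for KCs, 6 to 9 for PMs, 4 to 7 for AMs, 9 to 10 among sorted populations and 8 to 10 for the difference in culture effect. The shares of all genes tested were not computed for counts under other settings. With prior counts of 0.5 and 5 the metal-response minus NRF2 mean was 1.40 and 0.72 in MG (1.01 with 2), 1.47 and 0.69 in KCs (1.01) and 1.75 and 1.42 in PMs (1.58), and moved by at most 0.01 in the other groups. In 1 model of all 24 libraries 4 members were called in AMs, against 6. The deviations of same-numbered sorted and cultured libraries from their group means correlated between -0.104 and 0.056. With 3 libraries a group, and a shared origin that need not show in both states, this cannot decide whether the numbers pair the libraries. With the replicate block, Gclc in PMs (adjusted p = 0.0789) and the Gclm difference in culture effect (adjusted p = 0.0536) lost the call, Nqo1 among sorted populations gained it (adjusted p = 0.0487), and 8 members were called in PMs. Low counts of Nqo1 and Pir in sorted cells limit the size of their fold changes.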
